A study of Mus musculus with 16 samples.

Results

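The data compare 3xTg-AD mice with wild-type (WT) mice after both genotypes had been exposed to alcohol vapor. The members are the 4 libraries titled as 3xTg-AD with alcohol (mice 4, 31, 33 and 34) and the 4 titled as WT with alcohol (mice 6, 7, 17 and 18), which together are 8 of the 16 libraries and 61688 of the 114512 nuclei in the count table. All 16 were single-nucleus RNA-sequencing (snRNA-Seq) libraries of prefrontal cortex from male mice aged 22 weeks. The 3xTg-AD line is on a mixed B6;129 background and carries, among its engineered alleles, human APP with the Swedish mutation and human tau with the P301L mutation, both driven by the neuronal Thy1.2 cassette. The WT mice carry the strain label B6;129. Both vapor groups had received intermittent alcohol vapor with injections of ethanol and of pyrazole, an inhibitor of alcohol dehydrogenase. By the study's text, the cortex was taken days after the last vapor exposure and after a water maze memory test. The words "under vapor" below therefore mean after such exposure and not during it. The other 8 mice, 4 of each genotype, had received air and pyrazole in saline and are called air controls here, so pyrazole is common to all groups. Raw unique molecular identifier (UMI) counts were summed over all nuclei of a mouse, and the mouse was the replicate.

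In the 3xTg line, mutant human APP and tau are made by neurons and drive amyloid and tau pathology with age, while glia respond to plaques with complement, antigen presentation and interferon-stimulated genes. Interferons act through JAK-STAT signalling on a conserved promoter element, the interferon-stimulated response element, and switch on antiviral effectors such as the Ifit, Oas, Gbp and Irg families. The study's text calls the WT mice littermates. On a mixed background, mice can differ at other alleles than the engineered ones, and these cannot be told apart in this contrast.

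The 8 vapor libraries held between 4955 and 9096 nuclei and between 9703237 and 17544364 UMIs per mouse, with a median of 1313 to 2175 UMIs per nucleus. Between 5 and 23 cell barcodes were shared by any pair of these libraries, 0.101% to 0.327% of the smaller one. 3xTg-AD vapor mouse 34 had the fewest nuclei and the highest median UMI count. Of the air controls, 3 (mice 12, 26 and 27) stood apart by high levels of Gm42418 and other rRNA-associated transcripts. The p-values measure the spread between these mice.

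The genes of the transgenes and their cassette gave no call. The transcripts of Thy1, App and Mapt are named here as the mouse genes of the table, and the share of human transgene reads among them was not tested. App, the amyloid precursor protein, was measured at 504, 389, 543 and 489 counts per 1000000 counts of the mouse (CPM) in the 3xTg-AD vapor mice and at 653, 617, 583 and 595 CPM in the WT vapor mice. The groups did not overlap, and the log2 fold change was -0.35 ± 0.12 (SE, n = 4 and 4; edgeR quasi-likelihood test, Benjamini-Hochberg adjusted p = 0.19). Mapt, which encodes tau, overlapped between the groups with a log2 fold change of 0.06 ± 0.09 (adjusted p = 0.788), as did Thy1, a neuronal surface glycoprotein (0.10 ± 0.16, adjusted p = 0.814). These transcripts therefore do not check the genotype labels.

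Between 3xTg-AD vapor and WT vapor mice, 158 of 16767 genes tested passed an adjusted p of 0.05 and are named called from here on, a background of 0.942% called, with 77 higher (0.459%) and 81 lower (0.483%) in 3xTg-AD mice. The count was 50 with the share of glial and vascular nuclei as a covariate, 40 of them among the 158, 327 with the rRNA-associated share as a covariate and 394 with DESeq2. The glial and vascular share itself was mostly higher in 3xTg-AD (12.8% to 17.8%) than in WT vapor mice (9.74% to 13.3%). A call lost with it thus cannot be told apart from a genotype difference taken up by the covariate. The 4 and 4 mice did not overlap in 153 of the 158, beside 9.97% of all genes tested, and 93 differed by more than 1 on the log2 scale. Among them were members of the interferon and microglial gene lists that were higher in 3xTg-AD mice. Most of these list members were not called without 3xTg-AD mouse 34, and none with the glial and vascular share as a covariate. Further calls were a run of 10 neighbouring genes at the end of the X chromosome that was higher. Other genes were lower in both treatments, such as Sbspon, Rbmxl1 and Ccl27a. Between the air control groups, which share no mouse with the vapor groups, 73 genes (0.435%) were called, and 45 genes were called in both contrasts and in the same direction. Those 45 are 28.5% of the vapor calls and 61.6% of the air calls. Both contrasts came from the same fit with a shared spread for each gene, so their calls are not independent. The direction was the same for 154 of the 158 genes (97.5%), against 59.0% of all genes tested, and the exceptions were F3, Ncapg, Timp4 and Olfr76, named after their values were seen. The count of vapor calls was 49, 99 and 71 without 3xTg-AD mouse 31, 33 or 34 and 90, 83 and 77 without WT mouse 6, 7 or 18, and 42 genes were called in each of the 8 fits that leave out 1 vapor mouse.

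**Figure D1:**
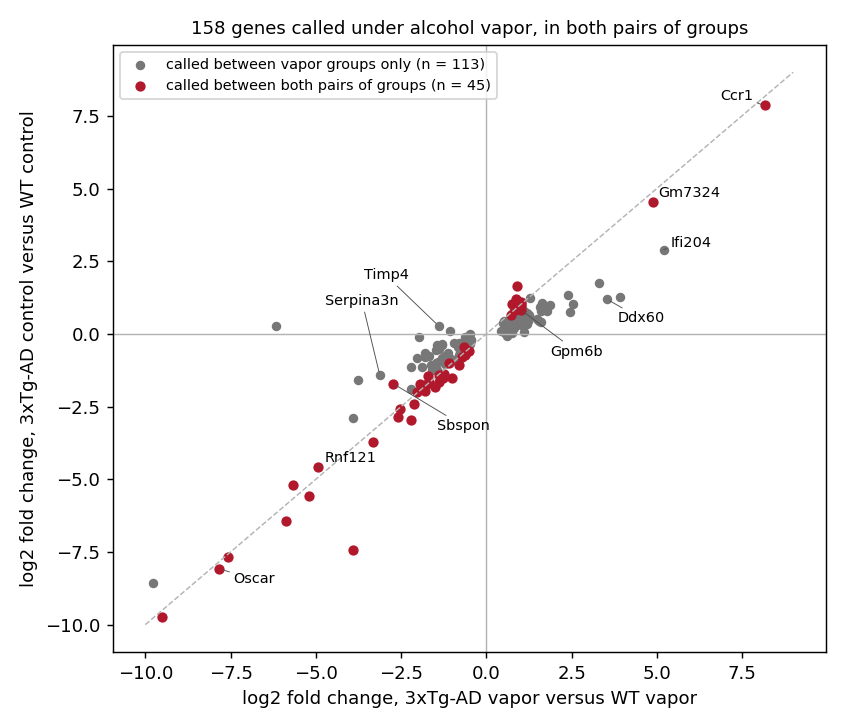
Each point is one of the 158 genes called under alcohol vapor, with its log2 fold change between 3xTg-AD and WT vapor mice on the x axis and between the air control groups on the y axis; the dashed line marks equal values. The 45 genes called in both contrasts (red) lie along the line, while most of the 113 others (grey) lie nearer to 0 on the y axis than on the x axis.

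The test of whether the genotype difference under vapor itself differed from that under air called 0 of 16767 genes (0%), with a smallest adjusted p of 0.756. DESeq2 gave 1 call. In edgeR 583 genes (3.48% of those tested) had an unadjusted p under 0.05, a smaller share than the 0.05 that chance alone gives. In the main edgeR fit over all nuclei, no gene is thus shown to differ between genotypes in one treatment and not in the other. As a description, the difference was larger in size under vapor than under air for 128 of the 158 called genes, which were chosen for their size under vapor, and the median size was 1.16 against 0.75 on the log2 scale.

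Several of the genes that were lower in 3xTg-AD vapor mice were also called lower in 3xTg-AD air controls. Ccl27a, a chemokine, was measured at 38.4, 33.9, 40.4 and 48.8 CPM in 3xTg-AD vapor mice against 121, 121, 143 and 141 CPM in WT vapor mice. Every 3xTg-AD mouse lay below every WT mouse, with a log2 fold change of -1.71 ± 0.11 (adjusted p = 5.75e-08), and between air controls the value was -1.44 (adjusted p = 1.25e-06). Rbmxl1, an intronless relative of the RNA-binding gene Rbmx, stood at 12.3, 8.14, 11.5 and 8.66 CPM in 3xTg-AD against 41.1, 49.4, 43.0 and 42.4 CPM in WT vapor mice. The groups were far apart in both treatments, at -2.11 ± 0.13 under vapor (adjusted p = 3.8e-08) and -2.39 under air (adjusted p = 1.5e-08). Galnt1, an enzyme that starts mucin-type O-glycosylation, was at 28.6, 29.5, 27.1 and 28.9 CPM in 3xTg-AD against 184, 98.1, 91.1 and 94.2 CPM in WT vapor mice. Its log2 fold change was -2.03 ± 0.23 (adjusted p = 0.000119), WT mouse 6 was the highest, and the value under air was -2.01 (adjusted p = 0.000122). Pglyrp1, a peptidoglycan recognition protein, differed by -1.74 ± 0.19 (adjusted p = 7.66e-05) under vapor and by -1.74 (adjusted p = 8.85e-05) under air. Ccl27a, Rbmxl1, Galnt1 and Pglyrp1 were called in each of the 8 fits without 1 vapor mouse. Ccl27a and Rbmxl1 have close relatives elsewhere in the genome, and reads could be divided among copies, so their values are uncertain to that extent.

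**Figure D2:**
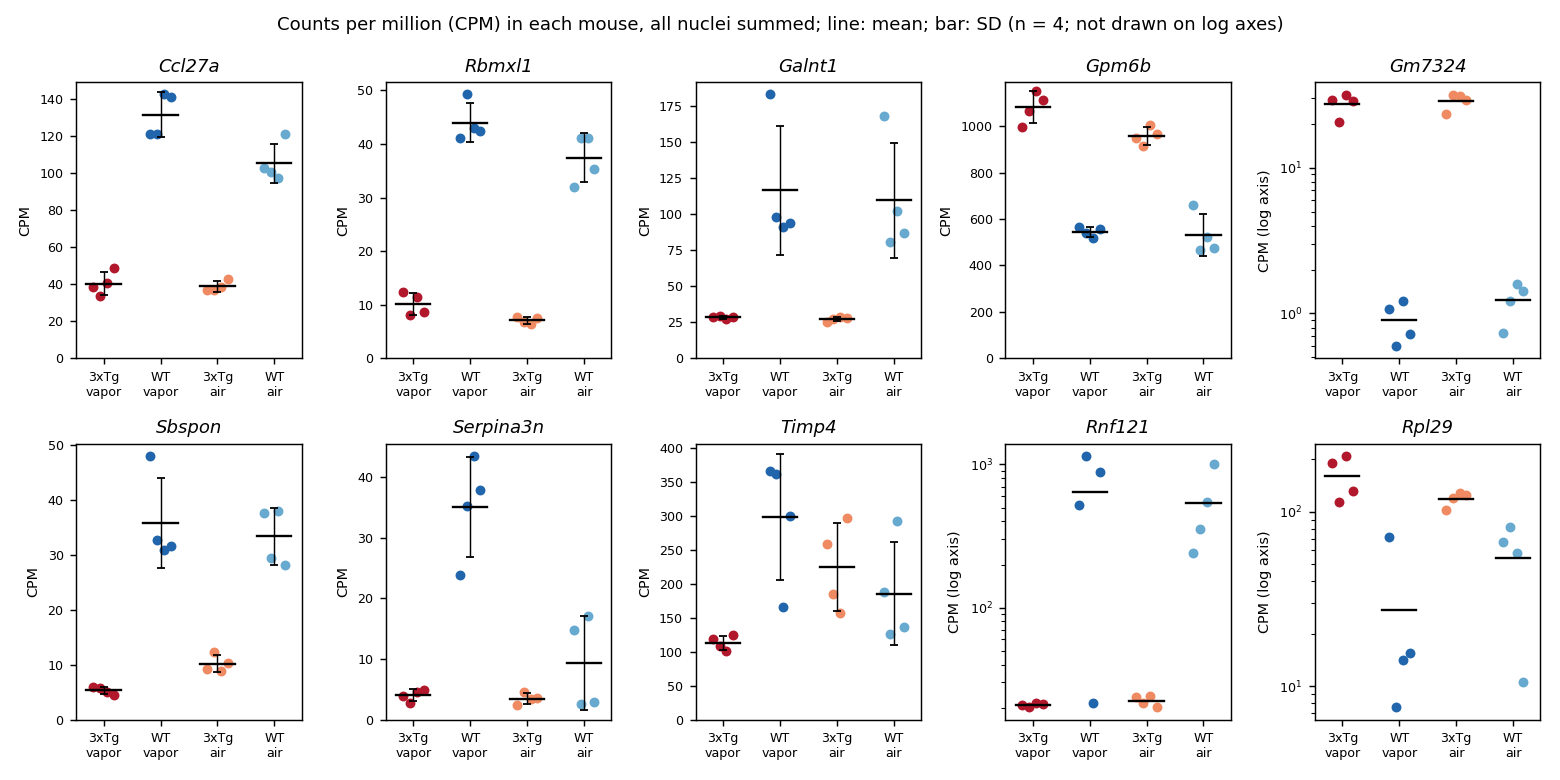
Each panel shows 1 gene, with CPM in each mouse (points) over all nuclei, the mean of each group of 4 mice (line) and, on linear axes, its SD (bar); Gm7324, Rnf121 and Rpl29 are on log axes. Ccl27a, Rbmxl1, Galnt1 and Sbspon are lower in 3xTg-AD mice in both treatments, Gpm6b and Gm7324 are higher in both, and single WT mice stand apart for Rnf121 and Rpl29.

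The gene with the smallest p was Gm7324, a predicted gene whose function is not known, at 29.3, 20.5, 31.6 and 28.9 CPM in 3xTg-AD and 1.07, 0.599, 1.21 and 0.721 CPM in WT vapor mice. Its log2 fold change was 4.88 ± 0.22 (adjusted p = 3.78e-10) under vapor and 4.52 under air. Ccr1, a receptor for inflammatory chemokines, was detected in each 3xTg-AD vapor mouse (1.56, 3.15, 2.18 and 3.71 CPM) and was at 0 in each WT mouse of both treatments. With the floor of 4 UMIs per mouse that the table allows for a gene at 0, Ccr1 was at least 9.15-fold higher in 3xTg-AD vapor mice. In the other direction Oscar, an immune receptor of the osteoclast lineage, was at 0 in every 3xTg-AD vapor mouse and at least 8.22-fold lower. The predicted gene 4933409K07Rik was likewise at 0 there and at least 25.9-fold lower. By the WT vapor mean, the predicted genes Gm21860 and Gm3892 were at least 30.3-fold and 6.59-fold lower, and the olfactory receptor Olfr76 at least 2.55-fold lower. The WT vapor mice were uneven, with 12 to 260 UMIs of Gm21860, 6 to 51 of Gm3892 and 6 to 15 of Olfr76. All these bounds compare group means and do not hold for each single mouse.

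Sbspon, which encodes a small secreted protein with thrombospondin and somatomedin B domains, differed strongly in both treatments. It stood at 5.99, 5.76, 5.10 and 4.54 CPM in 3xTg-AD vapor mice and at 48.1, 32.8, 30.9 and 31.7 CPM in WT vapor mice. The log2 fold change was -2.74 ± 0.17 (adjusted p = 3.6e-08) under vapor and -1.71 (adjusted p = 1.78e-05) under air. The interaction of Sbspon had an unadjusted p of 0.000296, which did not pass the adjustment over all genes. In 3xTg-AD air controls Sbspon was at 9.29, 12.4, 8.89 and 10.3 CPM, above every 3xTg-AD vapor mouse, while the WT mice of both treatments overlapped.

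Serpina3n, a serine protease inhibitor that is a standard marker of reactive astrocytes, was lower in 3xTg-AD vapor mice. Its levels were 3.89, 2.73, 4.61 and 4.95 CPM in 3xTg-AD and 23.8, 35.3, 43.4 and 37.8 CPM in WT vapor mice. No mice of the groups overlapped, with a log2 fold change of -3.12 ± 0.46 (adjusted p = 0.00307). WT air controls were split, at 14.8 and 17.1 CPM in mice 26 and 28 and at 2.54 and 3.00 CPM in mice 27 and 36, and the air contrast was not called (-1.42, adjusted p = 0.339). Within marker-defined nuclei Serpina3n was lower in the excitatory neuron (-3.25 ± 0.45, adjusted p = 0.00158), inhibitory neuron (-3.23 ± 0.44, adjusted p = 2.39e-05) and astrocyte classes (-2.21 ± 0.40, adjusted p = 0.0139). The astrocyte call was made in 4 of the 8 fits without 1 vapor mouse. The part of free RNA from other cells in the counts of the neuron classes was not tested. With the share of glial and vascular nuclei as a covariate the summed value no longer passed (adjusted p = 0.0687), and the gene belongs to a cluster of similar copies.

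Several other lower genes rested on uneven WT mice. Rnf121, a ubiquitin ligase of the endoplasmic reticulum and Golgi, was at 20.8, 20.1, 21.5 and 21.3 CPM in 3xTg-AD vapor mice. The WT vapor mice had 517, 1140.1, 21.6 and 887 CPM, so that WT mouse 17 lay at the level of the 3xTg-AD mice. The log2 fold change was -4.94 ± 0.84 (adjusted p = 0.0146) and the gene was also called under air (-4.59, adjusted p = 0.0254). It was not called without 3xTg-AD mouse 31 or 34 (adjusted p = 0.062 and 0.0618). Krt12, a keratin, and Sh2d1a, an adaptor of lymphocyte receptors, showed similar unevenness among WT mice, with WT vapor ranges of 4.09 to 26.2 CPM and 6.4 to 25.1 CPM, and were called in 2 and 7 of the 8 fits without 1 vapor mouse. Wwox, an oxidoreductase gene at an Alzheimer's disease risk locus, was at 21.9, 27.2, 22.9 and 24.996 CPM in 3xTg-AD against 38.6, 69.0, 82.2 and 79.5 CPM in WT vapor mice. It fell by 1.47 on the log2 scale (SE 0.28, adjusted p = 0.0191), and in WT air controls it again ranged widely, from 29.3 to 87.7 CPM. Wwox was not called without 3xTg-AD mouse 31, 33 or 34 or WT mouse 18 (adjusted p of 0.0534 to 0.0618).

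Timp4, an inhibitor of matrix metalloproteinases made in brain, was one of the 4 genes whose direction differed between treatments. It was at 118, 109, 101 and 124 CPM in 3xTg-AD vapor mice and at 366, 362, 166 and 300 CPM in WT vapor mice. The groups did not overlap under vapor, where the log2 fold change was -1.40 ± 0.27 (adjusted p = 0.0189), and they did overlap under air, where it was 0.27 (adjusted p = 0.888). The interaction had an unadjusted p of 0.000325 and was not called. Without 3xTg-AD mouse 31, 33 or 34 or WT mouse 6 or 7 it missed the threshold (adjusted p of 0.0512 to 0.0799), and it was not called with the glial and vascular share as a covariate (adjusted p = 0.476). Olfr545, Selenop and 5430403G16Rik completed the 5 genes with the smallest interaction p. Selenop, the selenium transport protein, was at 30.2, 28.3, 33.4 and 24.3 CPM in 3xTg-AD and 23.9, 19.4, 25.1 and 21.9 CPM in WT vapor mice, while under air 3xTg-AD mice were at 18.9 to 21.7 CPM and WT mice at 21.7 to 30.3 CPM. Its interaction p of 0.000469 did not pass the adjustment either. Olfr545, an olfactory receptor with an interaction p of 4.51e-05, was at 0 in all WT air controls and at a mean of 0.866 and 0.651 CPM in 3xTg-AD and WT vapor mice, and 5430403G16Rik had a log2 fold change of 0.40 under vapor and -0.86 under air.

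The end of the X chromosome held the longest run of called genes. From Gemin8 to Hccs (mm10, X:166170454-169320372), 10 of 15 tested genes were called, all higher in 3xTg-AD vapor mice, and the other 5 were above 0 with a median of 0.52. Gpm6b, a proteolipid of neurons and oligodendrocytes, was at 995, 1064, 1153 and 1114 CPM in 3xTg-AD and at 568, 541, 519 and 556 CPM in WT vapor mice. The groups did not overlap, with a log2 fold change of 0.99 ± 0.11 (adjusted p = 0.000128), and the value was 0.85 under air (adjusted p = 0.00061). Hccs, which attaches heme to cytochromes c, rose by 1.02 ± 0.11 (adjusted p = 0.000119), from 8.59 to 10.6 CPM in WT to 17.5 to 21.7 CPM in 3xTg-AD vapor mice. Msl3, a chromatin reader of the male-specific lethal complex, rose by 0.93 ± 0.11 (adjusted p = 0.000319), and Frmpd4, a postsynaptic scaffold, by 1.03 ± 0.14 (adjusted p = 0.000988). Trappc2, a subunit of a vesicle tethering complex, rose by 0.87 ± 0.14, Ofd1, a centriolar protein, by 0.72 ± 0.11, Rab9, a GTPase of late endosomes, by 0.76 ± 0.15, Gemin8, of the SMN complex, by 1.03 ± 0.19, and Tceanc, named for its transcription elongation factor domain, by 1.06 ± 0.25. Tlr7, an endosomal sensor of single-stranded RNA that is also on the microglial list, was at 1.92, 2.79, 3.22 and 3.96 CPM in 3xTg-AD and at 1.07, 0.699, 1.27 and 0.721 CPM in WT vapor mice (1.62 ± 0.31, adjusted p = 0.0189). Of the 10, 8 were also called under air. The calls of Gemin8, Rab9, Tlr7 and Tceanc were lost without 1, 4, 5 and 7 of the 8 vapor mice in turn.

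The tested genes before this run did not share its direction. In the 10 Mb before Gemin8, 0 of 39 tested genes were called, 13 were above 0 and the median was -0.13, while from Gemin8 to the end of the chromosome 10 of 19 were called, 18 were above 0 and the median was 0.87. Tmsb4x, an actin-binding thymosin that lies inside the run, was at 3405, 2122, 3726 and 2289 CPM in 3xTg-AD and at 1842, 1840.3, 1567.5 and 1916 CPM in WT vapor mice. These groups did not overlap, but the log2 fold change of 0.69 ± 0.22 was not called under vapor (adjusted p = 0.169), whereas that of 1.29 under air was (adjusted p = 0.0105). Over the whole X chromosome 13 of 515 tested genes (2.52%) were called, a higher share than on any autosome, but 10 of these 13 were those of the run. On the Y chromosome it was 1 of 7.

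**Figure D3:**
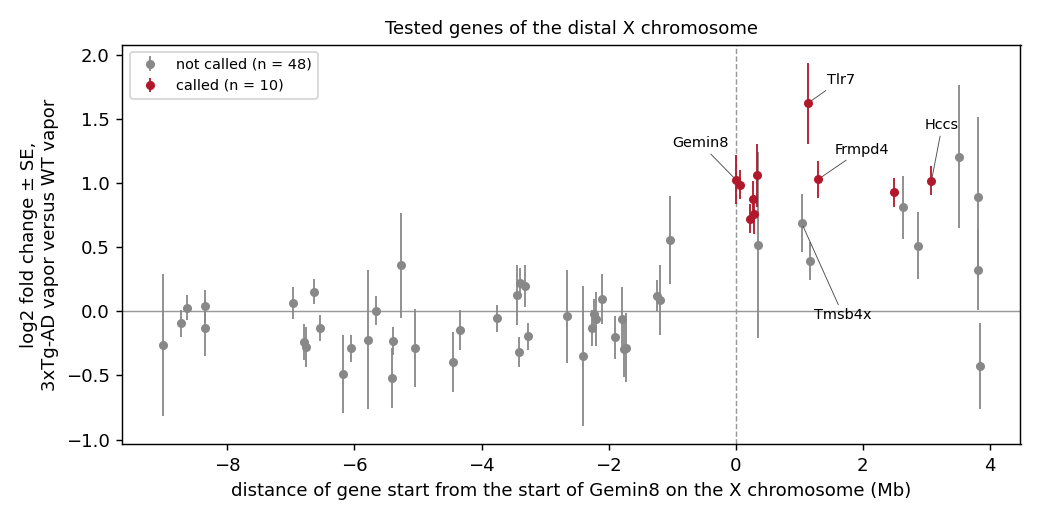
Log2 fold change between 3xTg-AD vapor and WT vapor mice, with its SE, of the tested genes of the distal X chromosome, against the distance of the gene's start from the start of Gemin8 in megabases (Mb). Called genes (red, n = 10) all lie between 0 and about 3 Mb and above 0, and the 39 genes before Gemin8 scatter around 0.

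In all, 13 runs of at least 3 called genes, spaced by no more than 2 Mb, held 53 of the 158 called genes. On chromosome 4 (mm10, 4:41769467-42235313), Ccl27a, Gm20878, Gm3892 and Gm17167 were called lower, 4 of 5 tested genes, and all 4 were also called under air; this stretch holds near-identical gene copies, so the division of reads among them is uncertain. On chromosome 9 (9:105470520-106895182), Alas1, the first enzyme of heme synthesis, fell by 0.66 on the log2 scale (SE 0.09, adjusted p = 0.00118), from 47.3 to 60.7 CPM in WT to 33.1 to 37.1 CPM in 3xTg-AD vapor mice. Its neighbour Abhd14a rose by 0.80 ± 0.13 (adjusted p = 0.0053), so a run could hold both directions. On chromosome 17 (17:31608894-34743882), Cbs, which makes cystathionine from homocysteine, Cyp4f15, a fatty acid hydroxylase, and the immune genes H2-K1, Psmb8 and C4b were all higher, but they were 5 of 90 tested genes and the other 85 had a median of 0.08. None of those 5 was called under air.

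The interferon-stimulated genes were the list with the most calls. Of 56 listed genes 48 were tested, 7 were called higher and 0 lower, 44 were above 0, and the median log2 fold change was 1.25, against -0.01 over all genes tested. The 7 were Ddx60, Rtp4, Irf7, Bst2, Ifitm3, Apobec3, a DNA cytidine deaminase, and Lgals3bp, a secreted galectin-binding protein, and DESeq2 called 18 of the 48. Their level differed among the 3xTg-AD mice, and 3xTg-AD vapor mouse 34 was the highest of its group in 46 of the 48 genes and exceeded each of the other 3 by more than 2 times in 26. Without mouse 34 the median was 0.70 and 1 gene was called. The median between air controls was 0.38. With the share of glial and vascular nuclei as a covariate the median was 0.51 and 0 genes were called.

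The sum over the listed genes showed the spread between mice. It was 393, 498, 463 and 1117 CPM in 3xTg-AD vapor mice 4, 31, 33 and 34, and 344, 359, 329 and 330 CPM in the WT vapor mice. Each 3xTg-AD vapor mouse lay above each WT vapor mouse, and the mean of the 3xTg-AD mice other than 34 was above the WT mean in 44 of the 48 genes. In 14 of the 48 the lowest of those 3 was also above the highest WT vapor mouse, beside 6.55% of all genes tested. Under air the sums were 386, 438, 457 and 399 CPM in 3xTg-AD against 332, 335, 353 and 344 CPM in WT, which again did not overlap. Ifit1, an RNA-binding antiviral effector, gave the widest gap, at 68.6 CPM in mouse 34 against 2.46, 4.22 and 4.92 CPM in the other 3xTg-AD and 1.79 to 3.13 CPM in the WT vapor mice, and it was not called (adjusted p = 0.129).

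**Figure D4:**
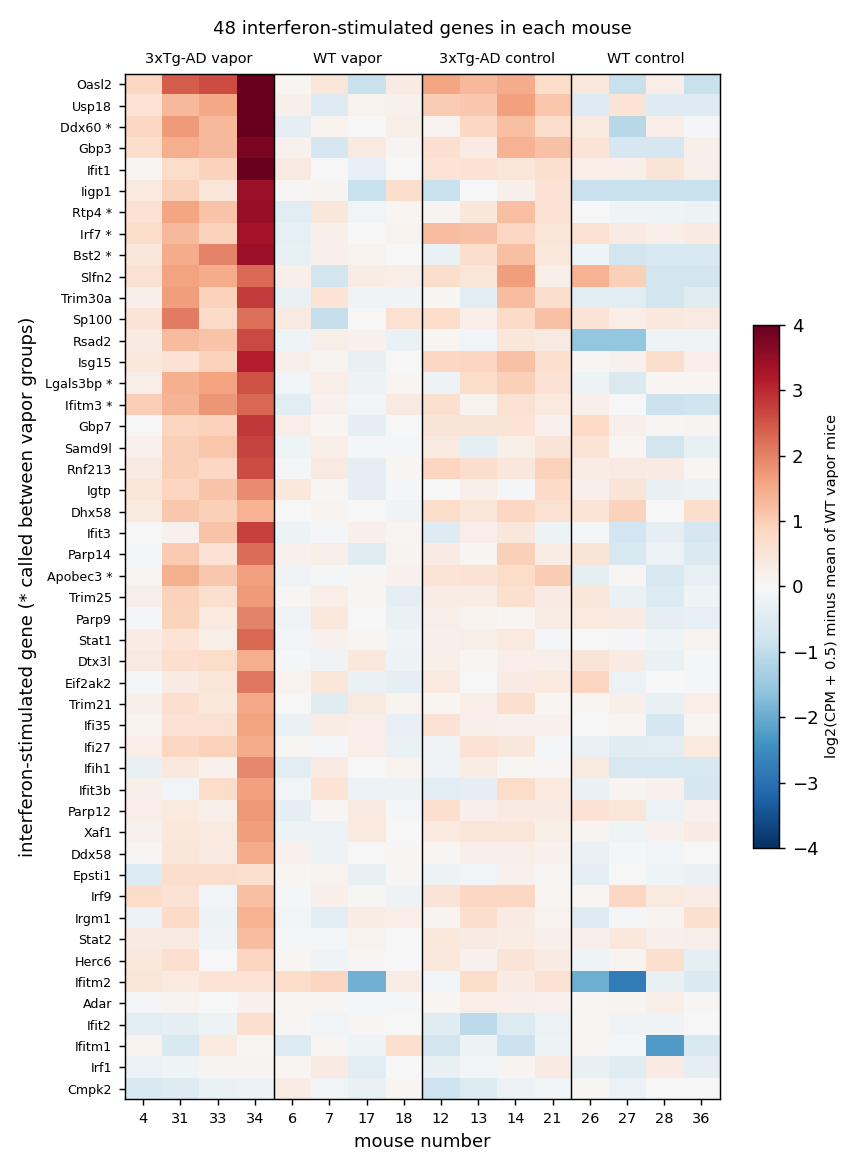
Each row is 1 of 48 interferon-stimulated genes and each column 1 mouse, with the colour giving log2(CPM + 0.5) minus the mean of the WT vapor mice, on a scale limited to values between -4 and 4. The column of 3xTg-AD vapor mouse 34 is the most raised, and the other 3xTg-AD columns are mostly above the WT columns by less.

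Single members differed in how far they rested on mouse 34. Ifitm3, a membrane protein that blocks viral entry, was at 10.1, 13.2, 17.7 and 26.1 CPM in 3xTg-AD and at 3.53, 5.50, 4.50 and 6.31 CPM in WT vapor mice. It rose by 1.75 ± 0.29 (adjusted p = 0.00543), was called in each of the 8 fits without 1 vapor mouse, and stood at 1.47 (adjusted p = 0.0197) without mouse 34. Bst2, or tetherin, which holds budding virus at the cell surface, was at 4.13, 8.97, 13.1 and 35.97 CPM against 2.26, 3.40, 3.23 and 2.89 CPM. The groups did not overlap (2.39 ± 0.49, adjusted p = 0.0259), and without mouse 34 the value was 1.57 (adjusted p = 0.0618). Irf7, the transcription factor that amplifies interferon production, was at 1.80, 2.91, 2.12 and 13.4 CPM against 0.599, 1.10, 0.864 and 1.02 CPM (2.46 ± 0.54, adjusted p = 0.0322; 1.35 and adjusted p = 0.0618 without mouse 34). Rtp4 and Ddx60 of the list and Ifi27l2a, an interferon-inducible gene outside it, with log2 fold changes of 2.54 ± 0.55, 3.54 ± 0.80 and 3.30 ± 0.63, also missed the threshold without that mouse (adjusted p = 0.0822, 0.142 and 0.0512).

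The response element was searched as GAAANNGAAA and its reverse complement TTTCNNTTTC in the 250 bases before the gene start, in RefSeq promoters of GRCm38.p6. It was present in 821 of 27025 promoters (3.04%), in 297 of the 12230 tested genes with an entry (2.43%), and in 15 of 40 tested interferon genes with an entry (37.5%). Among called interferon genes 3 of 6 held it, and among all genes called higher 5 of 55 (9.09%), against 2 of 57 called lower (3.51%). Matches may overlap each other. The windows below, read 5′ to 3′ on the strand of the gene with the match in capitals, show 1 match for each of the called list members that hold it and for Ifit1 and Isg15, which are classical interferon targets. Bst2, Ddx60 and Ifit1 hold 2 matches each and Isg15 holds 3, and the match printed for them was picked by no rule:
Bst2: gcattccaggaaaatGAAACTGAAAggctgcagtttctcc
Apobec3: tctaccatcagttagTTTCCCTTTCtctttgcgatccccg
Ddx60: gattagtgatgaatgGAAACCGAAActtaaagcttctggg
Isg15: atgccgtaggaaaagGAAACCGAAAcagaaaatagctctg
Ifit1: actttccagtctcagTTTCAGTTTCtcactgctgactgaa
The windows lie at chr8:71537572-71537611 on the minus strand for Bst2, at chr15:79892253-79892292 on the plus strand for Apobec3, at chr8:61928019-61928058 on the plus strand for Ddx60, at chr4:156200866-156200905 on the minus strand for Isg15 and at chr19:34640789-34640828 on the plus strand for Ifit1. In Ifit1 the matches began 104 and 85 bases before the gene start, the second of which is printed, and in Ddx60 they began 53 and 19 bases before it, the first of which is printed. A match describes the letters and is not a measured binding site.

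Other immune genes were higher too, and C4b, Pld4 and Ctsh also without mouse 34. C4b, the complement component that tags synapses and plaques, was at 11.2, 17.1, 22.7 and 25.3 CPM in 3xTg-AD and at 6.66, 7.39, 5.94 and 6.37 CPM in WT vapor mice. Each 3xTg-AD value exceeded each WT value, and C4b rose by 1.53 ± 0.25 (adjusted p = 0.00498; called in each of the 8 fits without 1 vapor mouse). Under air it was at 5.94, 7.46, 7.08 and 6.61 CPM in 3xTg-AD and 3.73, 3.65, 3.98 and 8.17 CPM in WT mice, and its interaction p of 0.00763 was not past the adjustment. Pld4, a microglial exonuclease of endolysosomes, was at 5.99, 13.9, 12.4 and 14.5 CPM against 4.26, 2.20, 4.61 and 4.39 CPM (1.57 ± 0.26, adjusted p = 0.00528). Ctsh, the lysosomal protease cathepsin H, rose by 1.20 ± 0.20 (adjusted p = 0.00655) and Ptprc, the leukocyte phosphatase CD45, by 1.11 ± 0.23 (adjusted p = 0.0266). H2-K1, a classical class I molecule, was at 15.3, 20.02, 24.3 and 37.8 CPM against 10.9, 8.09, 11.2 and 14.2 CPM (1.11 ± 0.24, adjusted p = 0.0318), and Psmb8, a subunit of the immunoproteasome, rose by 1.24 ± 0.28 (adjusted p = 0.037). Pld4 and Ctsh were called in each of the 8 fits without 1 vapor mouse, but Ptprc, H2-K1 and Psmb8 in 2 each, and without mouse 34 their adjusted p were 0.087, 0.117 and 0.136. C4b and H2-K1 each have near-identical copies beside them, and the split of reads between copies is uncertain.

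As lists, class I antigen presentation had 2 of 17 tested members called, both higher, with a median of 0.44. That median was 0.07 without mouse 34 and 0.01 with the glial and vascular share as a covariate, with 0 calls in each. Complement and microglial genes had 3 of 28 called, all higher, with a median of 0.18. Without mouse 34 the median of this list was 0.11 with 1 call, and with that covariate it was 0.10 with 0 calls. One of the 3 called was Fcer1g, the shared gamma chain of Fc receptors (0.79 ± 0.18, adjusted p = 0.043; 0.129 without mouse 34). Of the 10 microglial marker genes used to sort nuclei, 7 were above 0 and 0 were called, and their sum was 156 to 227 CPM in 3xTg-AD and 135 to 176 CPM in WT vapor mice. With the glial and vascular share as a covariate, none of these immune genes passed (C4b adjusted p = 0.208, Pld4 0.233, Ctsh 0.144). That share was mostly higher in the 3xTg-AD mice, so the covariate may also take up a genotype difference. In a sum over all nuclei, more nuclei of a type and more RNA per nucleus cannot be told apart.

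Nuclei were placed in 8 classes by UMIs of marker genes, and 43.7% to 63.8% of nuclei per vapor mouse remained unassigned. Astrocyte-like nuclei were 9.78% ± 0.649 (SD, n = 4) of nuclei in 3xTg-AD and 7.17% ± 0.684 in WT vapor mice. As a share of all nuclei the groups did not overlap. The two-sided exact permutation p of 0.0286 is the smallest that 4 against 4 mice can give, with 0.229 after adjustment over 8 classes. Microglia-like nuclei were 1.499% ± 0.486 against 0.956% ± 0.456 (exact permutation p = 0.143, adjusted p = 0.457), and excitatory neuron-like nuclei 26.5% ± 5.15 against 25.7% ± 5.48 (exact permutation p = 0.8, adjusted p = 0.943). Glial and vascular nuclei together were 15.3% ± 2.30 of all nuclei in 3xTg-AD and 11.1% ± 1.54 in WT vapor mice (exact permutation p = 0.0571). Mouse 34 was the highest at 17.8%, and it also had the lowest unassigned share (43.7%). Of its assigned nuclei 16.7% were astrocyte-like, the lowest of the 3xTg-AD vapor mice. Its oligodendrocyte-like (8.24%) and microglia-like (3.80%) shares of assigned nuclei were the highest of them. In the astrocyte-like share of assigned nuclei the genotypes overlapped. Mouse 34 lay below WT vapor mice 6, 7 and 18 (19.6%, 20.6% and 17.9%), while 3xTg-AD mice 4, 31 and 33 lay above every WT vapor mouse. The difference in that share was not tested. The covariate used here was the share of all nuclei. Of the 12 astrocyte markers 10 were above 0 in the sum and 0 were called, and their summed level overlapped, at 753 to 1070 CPM against 642 to 840 CPM. Within microglia-like nuclei Pld4 was at 368, 560.4, 688 and 655 CPM in 3xTg-AD and at 215, 222, 274 and 239 CPM in WT vapor mice. The groups did not overlap, and Pld4 was called there (1.31 ± 0.24, adjusted p = 0.000248), as was Ctsh (1.36 ± 0.36, adjusted p = 0.0301; called in 2 of the 8 fits without 1 vapor mouse, against 8 for Pld4), from 227 and 95 UMIs of the 2 genes in the 3xTg-AD mice and 65 and 26 in the WT mice. In the same nuclei Slc1a3, an astrocyte gene, was lower in 3xTg-AD mice, and the part of astrocyte RNA there was not tested. Within astrocyte-like nuclei C4b was not called (1.03 ± 0.25, adjusted p = 0.0828).

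Astrocyte genes gave few calls. Of 20 tested genes of the reactive astrocyte list 0 were called higher and 1 lower, Serpina3n, with a median of 0.12 that was 0.22 without mouse 34. Grin2c, the NMDA receptor subunit that cortical astrocytes express, was at 20.96, 24.95, 23.3 and 21.2 CPM in 3xTg-AD and at 13.2, 9.39, 14.7 and 13.6 CPM in WT vapor mice. It rose by 0.82 ± 0.15 (adjusted p = 0.0127), was the single call among 24 glutamate receptor genes, and was not called without 3xTg-AD mouse 31 (adjusted p = 0.056), under air (0.21, adjusted p = 0.828) or with the glial and vascular share as a covariate (adjusted p = 0.21). Sfrp1, a secreted inhibitor of Wnt signalling, was at 13.1, 13.4, 18.3 and 9.98 CPM against 5.13, 7.39, 5.59 and 5.17 CPM. It rose by 1.25 ± 0.23 (adjusted p = 0.0137) and, unlike C4b, Pld4 and Ctsh, was called with that covariate (adjusted p = 0.00588), as was Ccr1. Without WT mouse 18 Sfrp1 was not called (adjusted p = 0.0517). Among vascular genes 1 of 22 was called, Ly6a, a surface protein of mouse endothelium and an interferon target, which rose by 1.12 ± 0.20 (adjusted p = 0.00817) and was not called with that covariate (adjusted p = 0.215). Within endothelial-like nuclei Ly6a was called higher (1.165), also in each of the 8 fits without 1 vapor mouse.

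Synaptic and Alzheimer's disease gene lists gave few calls. Of 25 genes of inhibitory transmission, 6 were above 0 and the median was -0.12. It was -0.19 without mouse 34, -0.24 with the glial and vascular share as a covariate and -0.15 under air. In 9 of the 25 every 3xTg-AD vapor mouse lay below every WT vapor mouse and in 0 above, beside 879 and 793 of all 16767 genes tested. The single call was Gad2, which makes GABA and is itself one of the markers used to sort inhibitory nuclei. Gad2 was at 73.4, 69.7, 81.7 and 63.9 CPM in 3xTg-AD and at 101, 105, 98.5 and 94.6 CPM in WT vapor mice, a fall by 0.46 on the log2 scale (SE 0.10, adjusted p = 0.0264). It was called in 1 of the 8 fits without 1 vapor mouse. Among 29 tau kinases and microtubule genes, Gsk3a, a kinase of tau, was the single call, at 31.5, 29.9, 32.6 and 31.3 CPM against 47.7, 43.7, 54.9 and 71.8 CPM (a fall by 0.80, SE 0.17, adjusted p = 0.0243), and the list's median was -0.18 with 6 above 0 and -0.09 with the glial and vascular share as a covariate. Gsk3a was called in 3 of the 8 fits without 1 vapor mouse. Among 31 genes at Alzheimer's disease loci Wwox was the single call, with a median of 0.10 that was 0.01 with that covariate, and among 20 genes of APP processing 0 were called, with a median of -0.13.

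Other lists had 0 calls with medians near 0. Of 29 synaptic vesicle genes 5 were above 0, of 39 calcium signalling genes 8, of 83 nuclear genes of oxidative phosphorylation 6 and of 82 ribosomal protein genes 14, beside 48.6% of all genes tested, and their medians lay between -0.15 and -0.12. The oxidative phosphorylation median was -0.05 without mouse 34, 0.05 with the glial and vascular share as a covariate and 0.07 under air. The ribosomal protein median was -0.02 without mouse 34 and 0.16 with that covariate, so neither list kept a direction. In the same settings the calcium signalling median was -0.11 and -0.08 and the synaptic vesicle median -0.16 and -0.20. Under air they were -0.06 and 0.03. In 8 of the 39 calcium and 4 of the 29 vesicle genes every 3xTg-AD vapor mouse lay below every WT vapor mouse, and in 0 above. Over all 16767 genes tested these counts were 879 and 793. Immediate early genes (18 tested, median 0.10), chaperones (21, -0.04), clock genes (18, 0.00), glucocorticoid targets (12, -0.08), genes of ethanol metabolism (10, -0.00) and channels that respond to alcohol (11, -0.09) had 0 calls too, as did cadherins, synaptic adhesion genes, actin regulators, neuropeptides and the rRNA-associated and mitochondrial transcripts. The immediate early median was 0.28 without mouse 34 and 0.70 with the covariate, and the chaperone median turned to 0.05 and 0.07. The median of the glucocorticoid targets was -0.23 with the covariate. The 18 myelin genes had 1 call, Gpm6b, and a median of 0.24 that was -0.03 without mouse 34, -0.34 under air and -0.80, with 3 calls, with the covariate. At unadjusted p under 0.05 the counts were 8 of 29 synaptic vesicle genes and 0 of 18 immediate early genes, beside 14% of all genes tested, and DESeq2 called 3 and 0.

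Within classes of nuclei, 219 calls on 171 different genes were made. Excitatory neuron-like nuclei gave 113 calls (0.785% of the genes tested there), inhibitory 33 (0.323%), astrocyte-like 32 (0.306%), microglia-like 18 (1.08%), oligodendrocyte-like 14 (0.344%), oligodendrocyte precursor-like (OPC) 6 (0.624%) and endothelial-like 3 (0.372%), and the classes differ in depth. Without 3xTg-AD mouse 31 the calls over all classes were 98, and without WT mouse 18 they were 123. When 1 vapor mouse was left out, the counts lay between 29 (without 3xTg-AD mouse 31) and 116 in excitatory, 14 (without WT mouse 18) and 28 in inhibitory, 22 and 52 (without WT mouse 17) in astrocyte-like, 9 (without 3xTg-AD mouse 34) and 25 in microglia-like, 5 (without WT mouse 18) and 20 in oligodendrocyte-like, 0 (without 3xTg-AD mouse 31) and 6 in OPC-like and 2 and 5 in endothelial-like nuclei, so the order of the shares is not fixed. Of the 219 calls, 66 were made in each of these 8 fits. In the same order of classes, DESeq2 gave 197, 34, 40, 6, 3, 3 and 1 calls. The 8 vapor mice alone gave 159, 82, 35, 19, 10, 5 and 7, and no filter on low counts gave 115, 115, 140, 26, 23, 7 and 7. Of the 171 genes, 95 were also called in the sum and 141 in 1 class. The classes rest on marker counts, and inside the excitatory class the check markers Camk2a and Nrgn were below the level outside it (ratios of 0.657 and 0.66) while Nptx1 was above (1.10).

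Gpm6b was called higher in 6 classes, with log2 fold changes between 0.90 in excitatory neuron-like and 1.16 in astrocyte-like nuclei, and its neighbour Tmsb4x was called in 5, from 0.78 to 1.15. The part of free RNA from other cells in these class counts was not tested. The Tmsb4x calls in astrocyte-like, OPC-like and oligodendrocyte-like nuclei were made in 1, 2 and 4 of the 8 fits without 1 vapor mouse. In astrocyte-like nuclei Gpm6b was at 2057, 2483, 2470 and 2082 CPM in 3xTg-AD and at 1212, 1256, 792 and 951 CPM in WT vapor mice. Ccl27a was called lower in 4 classes, from -1.47 in oligodendrocyte-like to -2.64 in inhibitory neuron-like nuclei. Rpl29, a ribosomal protein with many processed copies, was not called in the sum (2.55 ± 0.64, adjusted p = 0.0868), where WT vapor mice were at 71.8, 7.59, 14.1 and 15.5 CPM and 3xTg-AD vapor mice at 189, 113, 208 and 130 CPM. It was called in oligodendrocyte-like (3.38 ± 0.38, adjusted p = 4.41e-10), microglia-like (3.09 ± 0.49, adjusted p = 6.3e-06) and endothelial-like nuclei (2.89 ± 0.54, adjusted p = 0.00438). Those WT sums held 13, 8 and 13 UMIs in all, so the size of the fold is poorly fixed. Under air the values in these classes, in the same order, were 0.77, 1.62 and 1.22, none of them called. The unadjusted interaction p were 8.49e-06, 0.11 and 0.0391 (edgeR). Interactions within classes were not adjusted over genes.

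**Figure D5:**
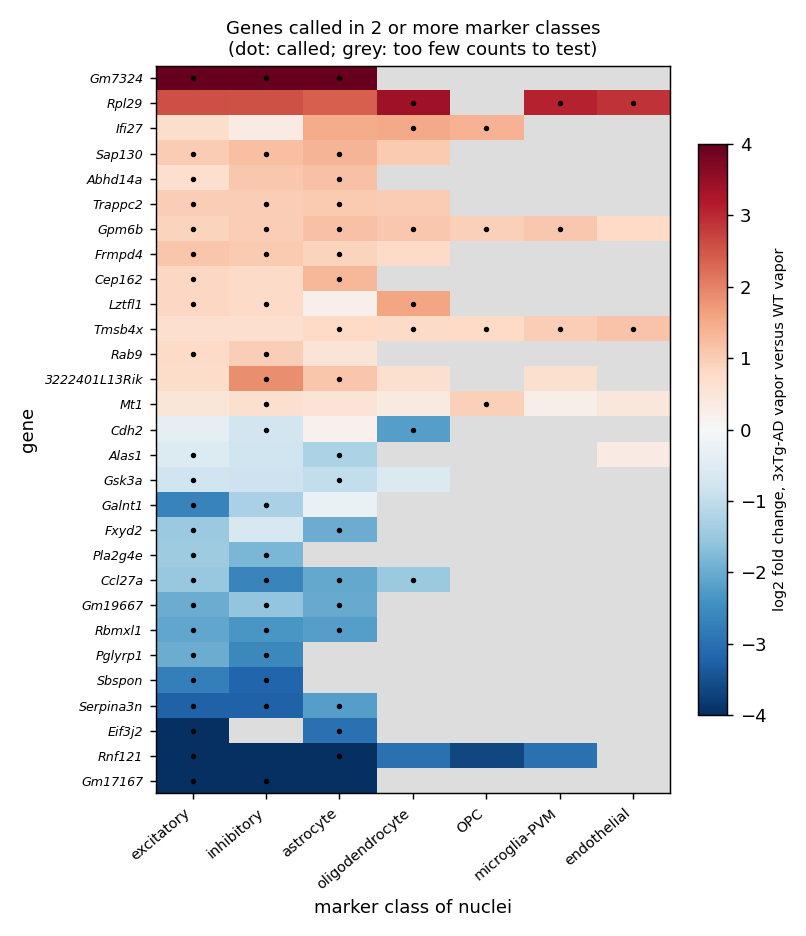
Log2 fold change between 3xTg-AD vapor and WT vapor mice (colour, limited to values between -4 and 4) of 29 of the 30 genes called in at least 2 classes of nuclei, with a dot where the gene was called and grey where it had too few counts to test. Gpm6b and Tmsb4x are higher in each class where they were called, and Ccl27a, Rbmxl1 and Serpina3n are lower.

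Other genes were called in a class and not in the sum. In microglia-like nuclei Slc1a3, the glutamate transporter GLAST, was at 102, 263, 202 and 184 CPM in 3xTg-AD and at 1106, 812, 786 and 1143 CPM in WT vapor mice (-2.22 ± 0.23, adjusted p = 2.26e-12), and the value under air was -2.10. Slc1a3 served to sort the nuclei. In the same nuclei H2-K1, which was also called in the sum, rose by 2.21 ± 0.46 (adjusted p = 0.00296), with WT mouse 7 (258 CPM) among the 3xTg-AD values, and was not called without WT mouse 17 or 3xTg-AD mouse 34. In oligodendrocyte-like nuclei Cdh2, or N-cadherin, was at 50.8, 74.0, 68.5 and 57.1 CPM against 247, 125, 429 and 204 CPM (-2.21 ± 0.29, adjusted p = 3.77e-07; -2.30 under air), and Sirt2, a deacetylase of the myelin sheath, fell by 1.12 (SE 0.25, adjusted p = 0.00924) and was not called without WT mouse 18 or 3xTg-AD mouse 31. In astrocyte-like nuclei Hmgn3, a nucleosome-binding protein, rose by 0.95 ± 0.15 (adjusted p = 0.000137), Glyctk, glycerate kinase, fell by 1.20 (SE 0.19, adjusted p = 0.000385), and Abhd14b rose by 1.05 ± 0.20 (adjusted p = 0.00314), beside -0.15 (adjusted p = 0.676) in the sum.

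Further genes were called in neuron-like nuclei and not in the sum. In inhibitory neuron-like nuclei Shmt2, the mitochondrial serine hydroxymethyltransferase, was at 16.2, 16.4, 20.4 and 26.1 CPM in 3xTg-AD and at 2.26, 6.73, 5.20 and 5.11 CPM in WT vapor mice (1.99 ± 0.43, adjusted p = 0.0228). Slc7a5, a transporter of large neutral amino acids, and Cars, the cysteinyl-tRNA synthetase, rose there by 1.39 ± 0.30 and 0.91 ± 0.20 (both adjusted p = 0.0228). Shmt2, Slc7a5 and Cars were called in 3 of the 8 fits without 1 vapor mouse, each missing without WT mouse 6, 17 or 18 and 3xTg-AD mouse 33, Shmt2 and Slc7a5 also without mouse 34 and Cars without mouse 31. In excitatory neuron-like nuclei Col7a1, a collagen, and Fbxl7, an F-box protein, rose by 1.63 ± 0.29 (adjusted p = 0.0085) and 1.75 ± 0.34 (adjusted p = 0.0132), and Fcgr2b, an inhibitory Fc receptor, fell by 3.37 (SE 0.61, adjusted p = 0.0103). Fbxl7 was not called without 3xTg-AD mouse 31 or WT mouse 18, and Fcgr2b not without mouse 31. Fcgr2b is a receptor of leukocytes and microglia, it was counted there with 12 UMIs in 3xTg-AD and 127 in WT vapor mice, and the part of free RNA or of other cells in these counts was not tested. In microglia-like nuclei it was at 81.9 to 144 CPM in 3xTg-AD and 0 to 82.2 CPM in WT vapor mice. In OPC-like nuclei the interferon-inducible Ifi27 rose by 1.39 ± 0.35 (adjusted p = 0.0339) and Mt1, the metal-binding metallothionein, by 0.95 ± 0.25 (adjusted p = 0.0385), and Mt1 was also called in inhibitory neuron-like nuclei (0.64 ± 0.15, adjusted p = 0.0436). These calls of Ifi27 and Mt1 in OPC-like nuclei were made in 3 and 1 of the 8 fits without 1 vapor mouse, neither of them without 3xTg-AD mouse 31 or 34 or WT mouse 6, 7 or 18, and that of Mt1 in inhibitory neuron-like nuclei in 0.

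The interferon sum was highest in mouse 34 among the vapor mice in neuron-like as well as in glia-like nuclei. The part of free RNA from other cells in these sums was not tested. The sum was 325, 394, 348 and 828 CPM in excitatory neuron-like nuclei of the 3xTg-AD vapor mice, 610, 839, 847 and 2558 CPM in astrocyte-like nuclei and 1154, 2760, 1467 and 4454 CPM in microglia-like nuclei. The WT vapor mice had 352, 329, 300.1 and 293 CPM in excitatory neuron-like nuclei, so that 3xTg-AD mice 4 and 33 lay within the WT range there. They had 412 to 572 CPM in astrocyte-like and 648 to 1255 CPM in microglia-like nuclei. In astrocyte-like nuclei every 3xTg-AD mouse was above every WT mouse, whereas in microglia-like nuclei 3xTg-AD mouse 4 lay within the WT range. Ifitm3 was called in astrocyte-like nuclei (1.65 ± 0.37, adjusted p = 0.0425), though in 2 of the 8 fits without 1 vapor mouse.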

How the data were processed

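The authors aligned reads of 16 snRNA-Seq libraries (10x Chromium 3′, dual index) to the mouse genome mm10 with Cell Ranger 6.1.1, based on STAR, and deposited 1 table of raw UMI counts for 19999 genes and 114512 nuclei, without normalization. Nuclei were assigned to mice by the column prefix and to groups by the labels, and no column was left out. Here counts were summed per mouse over all nuclei and, for nuclei with at least 3 marker UMIs from at least 2 markers and 2 times those of the next class, per mouse and marker class with at least 10 nuclei in a mouse. The study's own cell identities were not used here. No doublet caller was run; leaving out 3453 nuclei with over 3 times their mouse's median UMIs was an alternative. Barcodes kept by the stricter filter (at least 500 genes and at most 5% mitochondrial UMIs) numbered 113008.

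Genotype contrasts and their interaction were fitted to all 16 mice with edgeR 4.0.16 in R 4.3.3 (TMM, filterByExpr, robust quasi-likelihood test), with Benjamini-Hochberg adjustment over all genes tested and calls at an adjusted p of at most 0.05. CPM values are counts per 1000000 counts, TMM-scaled over all nuclei, and within classes relative to the mouse's unscaled total in that class. Shares of nuclei were compared by exact permutation (SciPy 1.17.1), adjusted over 8 classes. Alternatives were RLE normalization, no filter, DESeq2 1.42.0, covariates for the rRNA-associated and the glial and vascular shares, stricter nuclei, the 8 vapor mice alone and leaving out each mouse. The fits were tested on simulated data first.

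The members and gene lists were chosen with earlier results of these data known. Named genes were those engineered in the line and the cassette gene Thy1; the 15 officially named called genes with the largest change in each direction, no overlap and at least 5 CPM in the higher group; up to 4 called members of each list, or the member with the smallest p; the 5 smallest interaction p; up to 3 class-specific calls per class; the 2 unnamed predicted genes with the largest change in each direction; and genes of runs of at least 3 called genes within 2 Mb of the next. These were 122 genes, not all described, and some items are not reported here; Apobec3, Oscar, Olfr76, F3, Ncapg, Ifit1 and Isg15 were named after their values were seen. Gene positions came from a mm10 annotation that matched 19636 of the 19999 gene names, and promoters from RefSeq (GRCm38.p6). The strand setting of the counting is not given in the sources used here, so overlapping and antisense genes are uncertain, as are near-identical copies. The floors of genes at 0 cover counting error only, and each ± is an SE or SD over mice.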

Additional observations from a re-analysis of the deposited data

Results flagged for a closer look

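Among 240 groups of 4 vapor mice examined, 16 had a mouse whose gap to its nearest neighbour, as a share of the group's range, was above Dixon's 95% critical value. Chance gives about 1 in 20 such groups. In 3xTg-AD vapor mouse 34 the highest value was apart for Ddx60 (0.922), Irf7 (0.904), Rtp4 (0.851), Dnah6 (0.838) and Abhd14b (0.929), and in 3xTg-AD mouse 31 for Sirt2 (0.870). In WT vapor mouse 6 it was apart for Sbspon (0.891), Galnt1 (0.924), Rpl29 (0.877), Ifi204 (1) and Bcl2a1b (1), where for Ifi204 and Bcl2a1b the other WT vapor mice were at 0. WT vapor mouse 7 was the highest for Fbxl7 (0.876), Gm19667 (0.917) and Col6a5 (0.871) and the lowest for Pld4 (0.855). WT vapor mouse 17 was the lowest for Slc1a3 (0.897).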

How the results depend on the processing

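No paired analysis was possible because the groups share no replicate numbers in the labels. The 158 calls between 3xTg-AD vapor and WT vapor mice became 394 with DESeq2, 327 with the rRNA-associated share as a covariate, 50 with the glial and vascular share as a covariate and 323 without the 3 air controls richest in Gm42418, a setting chosen after seeing the data, and lay between 49 and 151 when 1 vapor mouse was left out. Of the 158, 40 remained called with the glial and vascular share as a covariate and 28 in every one of the fits without 1 vapor mouse, with DESeq2, with that covariate and with the 8 vapor mice alone. The fit to the 8 vapor mice alone called 112 of the 158. The interaction of genotype and alcohol gave 1 call with DESeq2 (Klk1b22), 1 without the 3 air controls (Olfr543) and between 0 and 1 when 1 mouse was left out (Gm26793, without WT vapor mouse 18); the 3 genes were named after their values were seen. The 219 calls over classes became 433 without a filter on low counts and lay between 98 and 230 without 1 vapor mouse. The cause of these changes was not tested. No named gene changed direction with a call in any alternative. Over named genes and alternatives, 1674 values kept their side of the threshold, 365 lost it and 34 gained it. No share of nuclei passed the adjustment in the alternatives tried. Depth limits the smaller classes: OPC-like and endothelial-like nuclei had 961 and 806 genes tested, and the vascular leptomeningeal and pericyte class had too few nuclei to test.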
